A study of Mus musculus with 34 samples.

Results

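Histone genes were followed in RNA sequencing libraries of MYC-driven mouse liver tumors with and without loss of Arid1a, and of livers given ARID1A by virus. The members were all rows listed as protein coding whose symbol began with Hist1h to Hist4h (clustered histones) or with H2af, H3f or H1f (variant histones). They numbered 83 of 46528 rows in the mixed-strain tumor table (68 clustered and 15 variant), 66 of 16140 in the FVB tumor table (57 and 9) and 34 of 14074 in the Rag1-/- liver table (26 and 8). The 34 members of the Rag1-/- table were in all 3 tables. The older mouse symbols of the tables are used throughout.

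Nucleosomes wrap DNA around the core histones H2A, H2B, H3 and H4, and H1 linker histones bind the DNA that enters and leaves. Clustered histone genes lie side by side, often as divergent pairs, are mostly transcribed in S phase, and give mRNAs that end in a conserved stem-loop in place of a poly(A) tail. Variant genes stand alone, are expressed outside S phase too, mostly give polyadenylated mRNA, and place proteins such as H2A.Z, H3.3, macroH2A and H1.0 at particular parts of the genome. Arid1a is a subunit of the SWI/SNF (BAF) remodeler, which moves and evicts nucleosomes.

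The mixed-strain tumors (C57/B6 and 129, FVB mix; about 90 days old) gave 8 Het libraries (Arid1afl/+;Alb-cre) and 8 WT libraries (Arid1aflfl, without Cre). The FVB tumors gave 4 Homo libraries (Arid1afl/fl;Alb-cre, about 100 days old), 4 Het libraries (about 70 days) and 4 WT libraries (about 55 days), both with the same genotypes as their mixed-strain namesakes, so that age moves with genotype there. All tumor groups carry LAP-tta and TRE-MYC, which drive MYC in hepatocytes once doxycycline is withdrawn, and tumors were collected at death. The protocol text writes the Het genotype as Arid1aflfl;Alb-cre, and the genotype of each library's own label was used. Alb-cre acts in hepatocytes and only Het and Homo carry it, so that Cre and Arid1a loss cannot be told apart. The Rag1-/- livers (FVB, about 42 days old, LAP-tta, TRE-MYC and wild type for Arid1a) gave 3 libraries after adeno-hARID1A (human ARID1A, ad-ARID1A below) and 3 after adeno-Cre (ad-Cre), taken 14 days after the virus. Their tissue label is liver although their source is named liver tumor. The labels do not say that libraries came from separate mice, so p-values measure the spread between samples, which may be technical.

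The sequence that sets most clustered histone mRNAs apart is the stem-loop bound by Slbp, which does the work of a poly(A) tail in processing and translation. Its 16 bases, searched by the stem-loop consensus on the sense strand, were in the transcript model of 46 of 68 clustered members and in 1 variant, H2afx, whose gene is known to give both kinds of mRNA. The most common form was in 26 of the 47. The stretches below carry the stem-loop in capitals with 5 bases on each side, from GENCODE M21 transcripts (GRCm38), and belong to genes named in the results.
Hist1h1c: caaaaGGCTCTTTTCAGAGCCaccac
Hist1h2bm: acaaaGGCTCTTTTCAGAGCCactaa
Hist1h4j: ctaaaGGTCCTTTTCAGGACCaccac
Hist1h3f: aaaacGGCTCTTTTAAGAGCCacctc
H2afx: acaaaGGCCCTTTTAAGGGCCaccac
Hist1h1c and Hist1h2bm share the common form, and the other stretches differ from it within the paired stem or the loop. The models of Hist1h2bl, Hist1h1b and Hist1h2bn hold no match, but they end at the stop codon, before the place of a stem-loop, so that nothing can be read from it. Of the 22 clustered members without a match 13 have such models. In 19 of the 47 the model goes on for more than 300 bases past the stem-loop.

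Promoters are shown for 3 genes of chromosome 13 whose FVB values are given below at length, and for Hist1h1c from another part of that chromosome as a contrast. They are RefSeq windows on GRCm38.p6, from 250 bases before the start to 50 after it, written along the gene's strand. Capitals mark CCAAT (the NF-Y box), TATAAA (the TATA box), ATTTGCAT (the octamer known from H2B promoters) and AAACACA (the box known from H1 promoters) on either strand.
Hist1h1b, chr13:21780576-21780875, minus strand: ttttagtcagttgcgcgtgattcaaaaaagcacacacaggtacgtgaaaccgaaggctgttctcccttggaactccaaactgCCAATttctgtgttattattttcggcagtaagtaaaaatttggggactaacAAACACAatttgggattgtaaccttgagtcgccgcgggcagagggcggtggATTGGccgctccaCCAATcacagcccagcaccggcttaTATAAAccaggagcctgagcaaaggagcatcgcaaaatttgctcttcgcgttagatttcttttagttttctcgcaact
Hist1h2bn, chr13:21753826-21754125, plus strand: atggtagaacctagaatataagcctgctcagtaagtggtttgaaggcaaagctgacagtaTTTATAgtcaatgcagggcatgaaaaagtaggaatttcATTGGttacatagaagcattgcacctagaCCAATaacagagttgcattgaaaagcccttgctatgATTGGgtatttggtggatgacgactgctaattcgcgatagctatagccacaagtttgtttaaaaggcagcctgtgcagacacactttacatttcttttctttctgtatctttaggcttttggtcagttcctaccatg
Hist1h2bl, chr13:21716134-21716433, minus strand: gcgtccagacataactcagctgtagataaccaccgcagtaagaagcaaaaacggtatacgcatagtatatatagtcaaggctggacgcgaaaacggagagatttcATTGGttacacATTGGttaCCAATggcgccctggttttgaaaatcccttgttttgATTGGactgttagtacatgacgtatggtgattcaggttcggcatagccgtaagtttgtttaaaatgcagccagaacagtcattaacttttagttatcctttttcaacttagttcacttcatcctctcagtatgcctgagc
Hist1h1c, chr13:23738557-23738856, plus strand: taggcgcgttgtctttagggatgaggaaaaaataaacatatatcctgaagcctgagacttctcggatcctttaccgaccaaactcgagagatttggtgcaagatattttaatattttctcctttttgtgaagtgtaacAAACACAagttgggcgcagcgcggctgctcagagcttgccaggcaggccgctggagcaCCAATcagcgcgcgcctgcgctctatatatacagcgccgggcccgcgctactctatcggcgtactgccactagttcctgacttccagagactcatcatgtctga
Each of the 4 windows holds CCAAT. That box was in 54 of 63 promoter windows of clustered members (85.7%), against 37.4% of all 32851 windows. TATAAA was in 55.6% of the clustered windows, against 13.6% of all windows. The octamer was in 22.2%, against 1.74% of all windows, but in 1 of the 18 windows of the genes from Hist1h2bl to Hist1h2br. The H1 box was in 5 of the 6 clustered H1 windows, against 7.18% of all windows. A match describes these letters and not binding.

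The libraries held an estimated 2.28 to 5.28 M counted reads in the mixed-strain table, 6.64 to 12.04 M in the FVB table and 8.72 to 10.6 M in the Rag1-/- table. Arid1a had a log2 fold change of -0.41 ± 0.093 (SE; limma adjusted p = 0.083) in mixed-strain Het tumors, -0.35 ± 0.17 in FVB Homo tumors (adjusted p = 0.515) and -0.32 ± 0.17 in FVB Het tumors (adjusted p = 0.424), each against WT. Values over the whole gene do not isolate the deleted part. The Rag1-/- value was 0.15 ± 0.11 (adjusted p = 0.619), where the human transgene need not map to mouse Arid1a. The 10 hepatocyte markers summed to 2802 to 13950 CPM (counts scaled to a common library total) in the tumor libraries and 71120 to 86430 CPM in the Rag1-/- livers. In bulk tissue fewer cells of a type and less RNA per cell cannot be told apart.

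Both classes of histone genes were expressed in every library, with clustered genes above variants in summed level in tumors and below them in the Rag1-/- livers. The clustered members summed to 1391 to 2433 CPM in the FVB tumor libraries, 1197 to 2217 CPM in the mixed-strain tumor libraries and 195 to 290 CPM in the Rag1-/- livers. The variants summed to 691 to 896 CPM in FVB tumors, 892 to 1287 CPM in mixed-strain tumors and 377 to 432 CPM in Rag1-/- livers. The tables were normalized separately and list different members, so these sums are set side by side without a test. RNAs of a list without a poly(A) tail summed to 81640 to 145900 CPM in FVB tumors. They summed to 31360 to 39860 CPM in Rag1-/- livers and to 1814 to 3374 CPM in mixed-strain tumors. Most of the FVB and Rag1-/- sums came from 1 gene of the list, Gm26917. Its group means were 16.38 to 16.54 log2 CPM in FVB tumors and 14.45 and 14.71 in Rag1-/- livers. The mean log2 value over the list's tested genes was 5.84 to 6.71 in FVB tumors and 6.45 to 7.04 in Rag1-/- livers. In mixed-strain tumors it was 3.56 to 4.92. The part of these differences in the histone sums was not tested.

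Per kilobase of exon, a clustered H1 gene led the FVB tumors. Hist1h1e (linker histone H1.4) had a median level of 189 CPM per kb in Homo, 212 in Het and 176 in WT libraries, and its model overlaps that of Hist1h2be on the same strand. In mixed-strain tumors the clustered gene Hist1h1b (H1.5) had the highest level per kb in Het (121 CPM per kb, against 45.4 in WT). The variant H1f0 (H1.0, known from resting and differentiated cells) had the highest level per kb in WT (81.8 in Het and 120 in WT). This order depends on the length of the models. That of Hist1h1b has 743 bases and ends at the stop codon. That of Hist1h1e has 1930 bases, with 1209 of them after the stop codon. Before division by length, the mixed-strain Het median was 89.7 CPM for Hist1h1b and 136.8 CPM for Hist1h1e. In the Rag1-/- livers Hist1h2bc, an H2B gene known to give polyadenylated mRNA too, came first with 63.6 CPM per kb after ad-ARID1A and 51.7 after ad-Cre. H1f0 had 55.0 CPM per kb there after ad-ARID1A and 49.6 after ad-Cre. H3f3b (H3.3) had 49.8 CPM per kb after ad-ARID1A and 43.0 after ad-Cre.

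**Figure D1:**
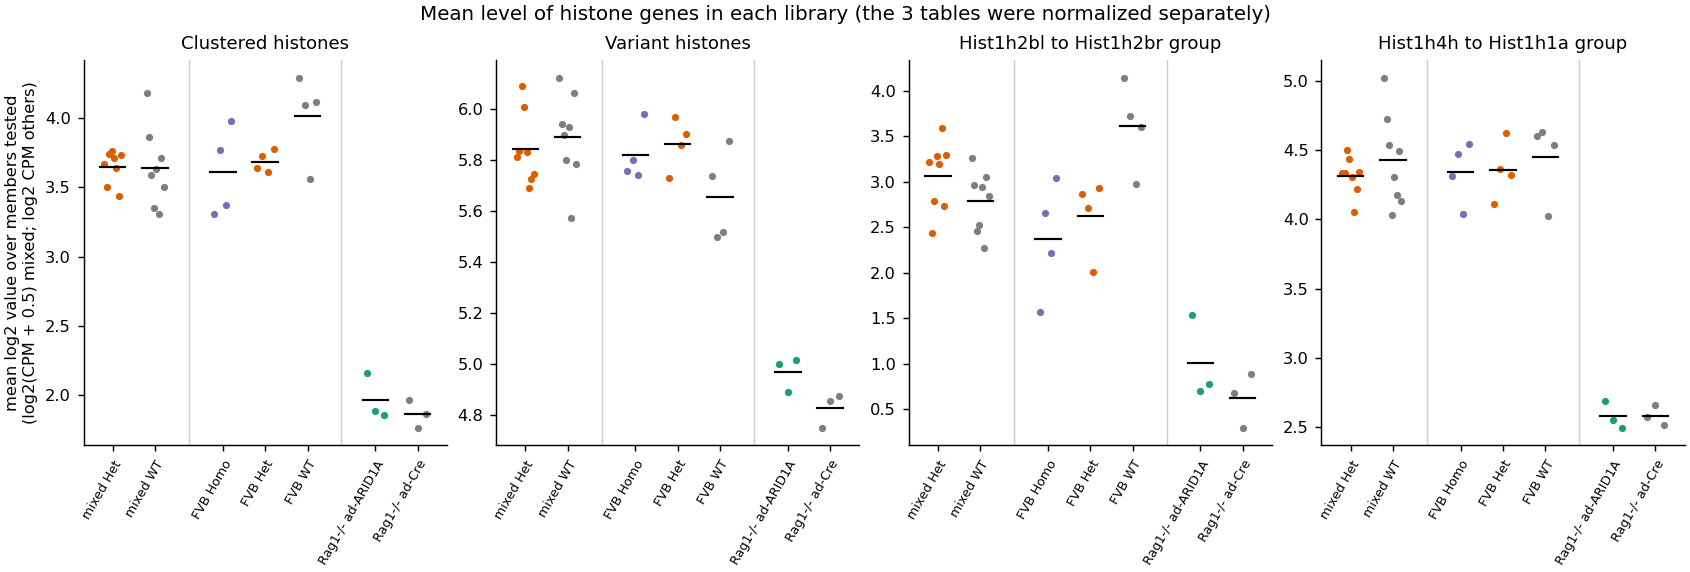
Mean log2 value per library (points; bars are group means) of the clustered members, the variant members, the chromosome 13 group from Hist1h2bl to Hist1h2br and the one from Hist1h4h to Hist1h1a, in 4 panels with groups along the horizontal axis and each table normalized on its own. The Rag1-/- livers have the lowest clustered means, at 1.86 to 2.16 after ad-ARID1A and 1.77 to 1.97 after ad-Cre.

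The distance between the classes set FVB WT tumors apart from both mutant groups. The mean log2 value of clustered minus variant genes was -2.45 to -2.01 in Homo and -2.25 to -2.09 in Het, both below every WT library at -1.96 to -1.41. Part of each class weighed most in these means. Against WT the 9 variants had median log2 fold changes of 0.0050 in Homo and -0.075 in Het, with H1fx alone at 1.49 and 2.02. The 17 listed clustered genes from Hist1h2bl to Hist1h2br had medians of -1.48 and -1.05. The other 40 clustered members had 0.084 and 0.054. In mixed-strain tumors it was -2.35 to -2.01 in Het and -2.45 to -1.95 in WT, which overlapped. In Rag1-/- livers it was -3.16 to -2.84 after ad-ARID1A and -3.09 to -2.78 after ad-Cre, which overlapped too. The variant mean itself was higher in every ad-ARID1A library (4.89 to 5.02) than in every ad-Cre library (4.75 to 4.87), in a table where 66.1% of all genes had higher means after ad-ARID1A.

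In FVB Het tumors 1 member fell against WT, the H2B gene Hist1h2bl, a single coding exon at chr13:21715763-21716143 (GRCm38). Its log2 CPM was 3.79, 3.66, 3.62 and 3.65 in Het libraries, against 5.2, 5.01, 4.57 and 4.87 in WT libraries. Every Het library lay below every WT library. The log2 fold change was -1.23 ± 0.18 (SE, n = 4 each; adjusted p = 0.0465 over all genes, limma). This was 1 of 66 members, where 0.0248% of all genes passed the threshold of 0.05. The call was lost in 12 of 16 alternatives, among them the one without WT 1 and WT 2 (-1.04, adjusted p = 0.266) and those without any single library other than Het 4 or WT 4 within these groups. Of the 50-base windows of Hist1h2bl 17.2% are found in no other gene, so that its reads and those of its paralogs are uncertain.

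In FVB Homo tumors Hist1h2bl lay between Het and WT. It had 3.88, 4.53, 4.17 and 4.59 log2 CPM in Homo libraries, and the highest of them overlapped the lowest WT library. The difference from WT was -0.62 ± 0.18 (SE; limma adjusted p = 0.26). Against Het it was 0.61 ± 0.18 (limma adjusted p = 1), with every Homo library above every Het library.

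The other members with low values in FVB Het and Homo tumors were mostly neighbours of Hist1h2bl, among the 18 members at chr13:21715763-21837530, from Hist1h2bl to Hist1h2br, called the Hist1h2bl group here. This grouping was chosen after values were seen, so it is described and not tested. Against WT, 15 of its 17 listed members had lower means in Homo (median log2 fold change -1.48) and 16 of 17 in Het (median -1.05). The other 40 clustered members had medians of 0.084 in Homo and 0.054 in Het, the 9 variants 0.0050 and -0.075, and all genes -0.018 and 0.020. The 28 listed members from Hist1h4h to Hist1h1a on the same chromosome, the largest clustered group and called the Hist1h4h group here, had a median of 0.034 in each. Its lowest member, the H2B gene Hist1h2bf, stood at -2.618 in Homo and -2.205 in Het, with libraries that overlapped WT.

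**Figure D2:**
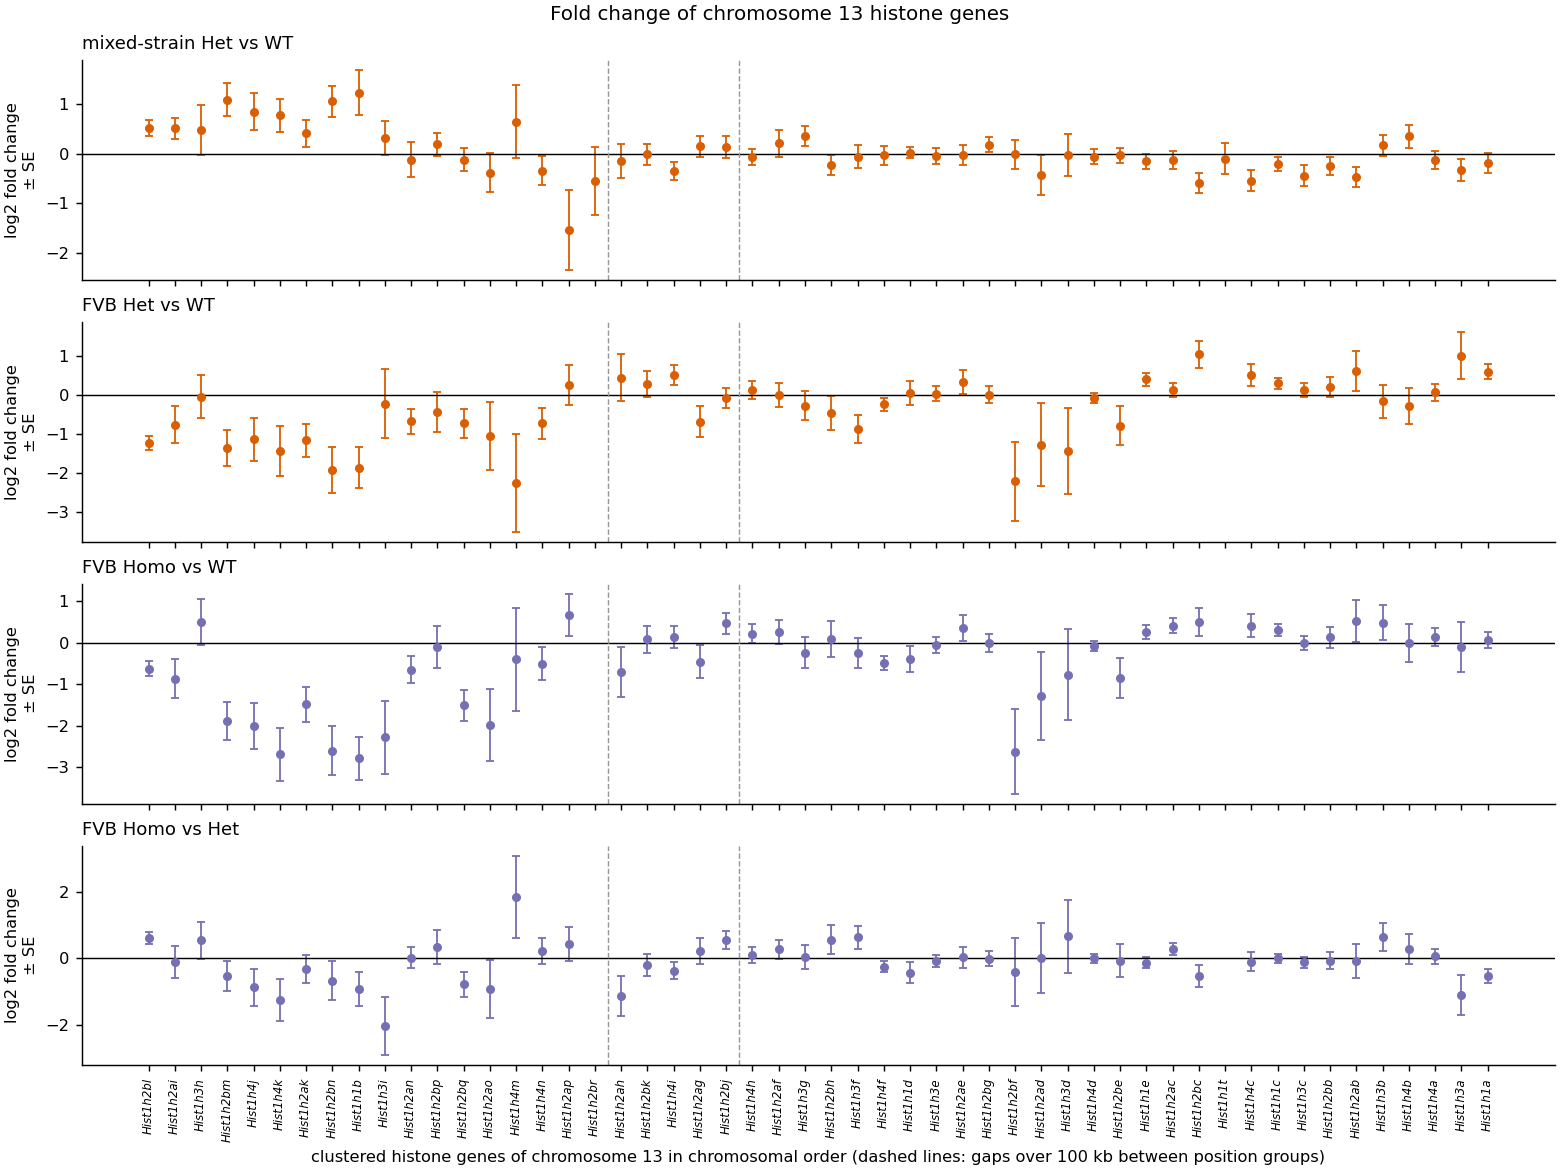
Log2 fold change (points, with SE bars) of each clustered member of chromosome 13 in chromosomal order, 1 panel for each tumor comparison, with dashed lines between position groups. The Hist1h2bl group stands at the left end, with medians of -1.48 in FVB Homo and -1.05 in FVB Het against WT, -0.33 in Homo against Het and 0.45 in mixed-strain Het against WT.

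Hist1h1b, the linker histone H1.5 made by dividing cells, had the lowest fold change of the FVB Homo comparison among clustered members, and all of its 50-base windows are unique to it. Its log2 CPM was 1.65, 3.80, 3.34 and 4.54 in Homo and 4.93, 4.39, 3.88 and 3.81 in Het, against 6.81, 6.72, 5.16 and 5.77 in WT. All Homo and all Het libraries lay below all WT libraries. The differences from WT were -2.78 ± 0.53 in Homo (SE; limma adjusted p = 0.0969) and -1.86 ± 0.53 in Het (adjusted p = 0.143), so that neither passed the threshold.

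Hist1h2bn, an H2B gene, showed the same order of groups. It had 0, 2.64, 2.44 and 3.36 log2 CPM in Homo and 3.95, 2.6, 2.32 and 2.26 in Het, against 4.85, 5.10, 4.57 and 4.30 in WT, where 0 stands for at most 1 CPM. All mutant libraries lay below all WT libraries. The differences from WT were -2.6 ± 0.58 in Homo (SE; limma adjusted p = 0.154) and -1.92 ± 0.58 in Het (adjusted p = 0.168).

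Hist1h4k, an H4 gene, had 0, 3.26, 1.01 and 3.61 log2 CPM in Homo and 3.87, 3.0, 2.87 and 3.13 in Het, against 4.98, 5.15, 3.94 and 4.54 in WT. Again no mutant library reached the WT range, although Homo libraries were far from each other. The differences were -2.68 ± 0.64 in Homo (SE; limma adjusted p = 0.172) and -1.44 ± 0.64 in Het (adjusted p = 0.33). The H2B gene Hist1h2bm had 1.01, 3.61, 2.01 and 2.73 in Homo and 3.23, 3.11, 2.62 and 2.56 in Het, against 4.58, 4.53, 3.36 and 4.44 in WT. Its Het libraries stayed below WT and 1 Homo library overlapped. Hist1h2bq, also H2B, had 2.26, 3.40, 3.40 and 3.14 in Homo and 4.58, 3.79, 3.15 and 3.81 in Het, against 4.79, 3.58, 5.08 and 4.76 in WT, so that only Homo stayed below WT.

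Counts over all members show how far these differences stood from the background of the FVB table. In Homo against WT no member of 66 passed, where 0.0434% of all genes did. At an unadjusted p under 0.05 there were 14 members (21.2%), against 10.02% of all genes, and limma with array weights called 1, Hist1h1b, where it called 0.13% of all genes. Libraries did not overlap for 5 members lower in Homo, where 1.98% of all genes were, and for 0 higher, where 2.09% were. The 5 were Hist1h1b, Hist1h2bn, Hist1h4k, Hist1h2bq and the H4 gene Hist1h4f of the Hist1h4h group. In Het against WT 13 members (19.7%) had an unadjusted p under 0.05, against 14.2% of all genes. Libraries did not overlap for 5 members lower in Het, all of the Hist1h2bl group, where 2.47% of all genes were, and for 1 higher, where 4.41% were. With array weights, which lower the weight of libraries far from their group, 14 members (21.2%) were called in Het, where 14.2% of all genes were. Of the 14, 8 were in the Hist1h2bl group, 5 were variants and 1 was Hist1h4c, an H4 gene of the Hist1h4h group.

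Markers of red blood cell precursors and of some other cell types had lower means in both FVB mutant groups too. The Hist1h2bl group summed to 70.3, 143, 125 and 248 CPM in Homo and 239, 184, 95.8 and 198 CPM in Het, against 654, 440.5, 228 and 363 CPM in WT. The 9 erythroid markers summed to 34.0, 62.0, 107 and 30.9 CPM in Homo and 29.2, 26.0, 26.0 and 28.6 CPM in Het, against 527, 539, 53.0 and 22.2 CPM in WT. All 9 had lower means in Homo and in Het than in WT, although WT 3 and WT 4 had sums that overlapped those of the mutant groups. The 9 neutrophil markers summed to 1.8 to 175 CPM in Homo and to 0 to 1.19 CPM in Het, where 3 of 4 libraries list all of them at 0, against 2.53 to 129 CPM in WT. Of these markers 7 had lower means than WT in Homo and 8 in Het. WT 1 and WT 2 were the WT libraries highest in both sums. Without these libraries the medians of the Hist1h2bl group were -0.98 in Homo and -1.02 in Het. The stellate cell and fibroblast markers had lower means for 8 of 8 in Homo (median log2 fold change -0.80) and 6 of 8 in Het (median -0.67), with sums of 111 to 522 CPM in Homo and 368 to 521 CPM in Het, against 350 to 536 CPM in WT. Among them Lrat, the retinol-esterifying enzyme of stellate cells, fell in Het by 2.50 ± 0.31 on the log2 scale (SE; limma adjusted p = 0.0234), and it was named after its values were seen. The endothelial markers had lower means for 5 of 6 in each, with sums of 74.5 to 152 CPM in Homo and 77.3 to 139 CPM in Het, against 103 to 235 CPM in WT. The macrophage and Kupffer cell markers had lower means for 6 of 8 in Homo and 5 of 8 in Het. WT 4 and WT 3, with the lowest erythroid sums of WT, had 363 and 228 CPM of the histone group, the first above and the second within the range of the mutant libraries. The part of these cell types in the histone values was not tested.

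Sequence sharing was high in the Hist1h2bl group, with a median of 13.9% of 50-base windows found in no other gene, against 59.6% in the Hist1h4h group and 92.0% in the variants. Its 4 members with at least 50% unique windows had median differences from WT of -1.95 in Homo and -1.24 in Het. The stem-loop was in the model of 7 of its 18 members, against 26 of 29 in the Hist1h4h group, but 9 of the 11 models without it end at the stop codon and could not show one. The 9 other genes listed within 500 kb of the group had medians of -0.15 in Homo and -0.20 in Het, with 0 called and 0 at an unadjusted p under 0.05.

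**Figure D3:**
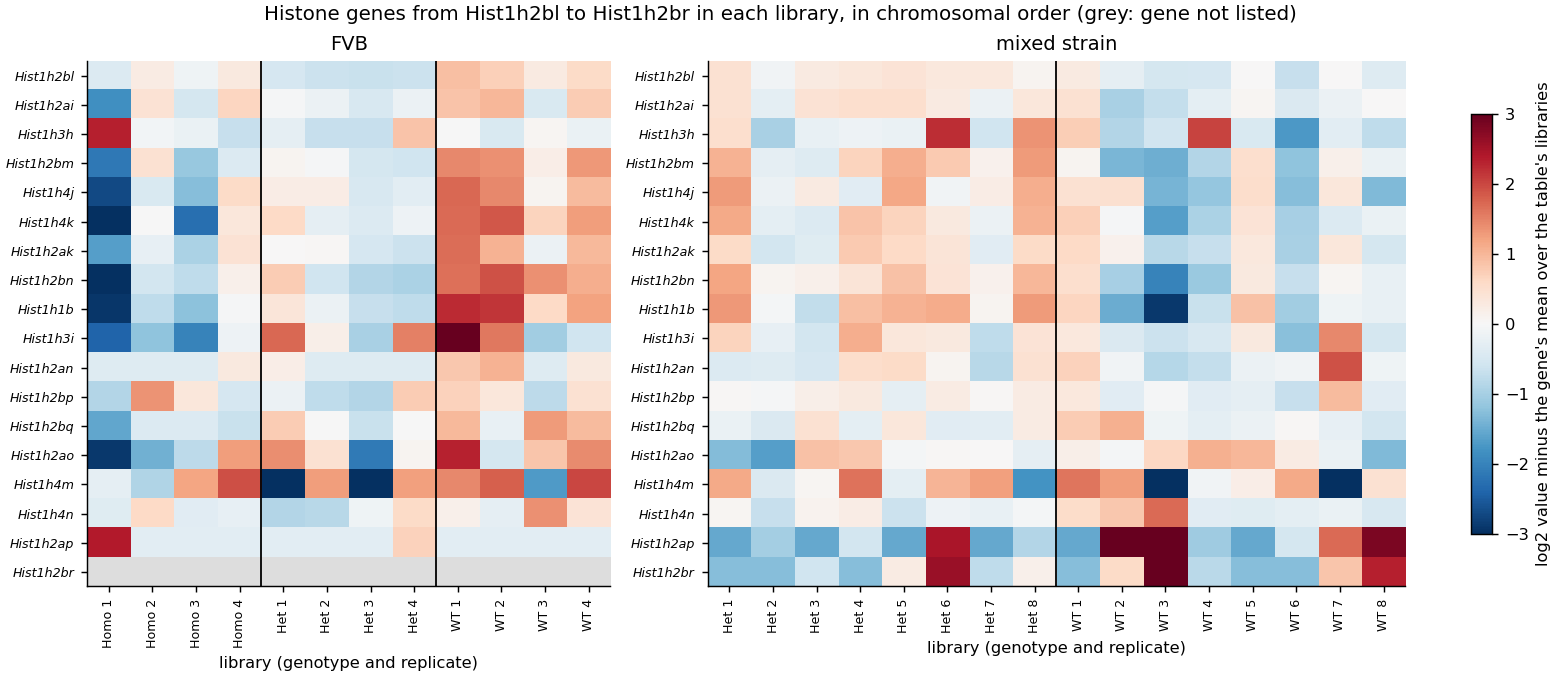
Log2 value of each member of the Hist1h2bl group (rows) in each FVB and mixed-strain library (columns) minus the mean of that member over the libraries of its table, with blue below the mean, red above it and grey for a gene that is not listed. In the FVB panel Homo 1 is the lowest library for 10 of 17 members, and WT 1 is above the mean for 15, WT 2 for 12, WT 3 for 10 and WT 4 for 14 of them.

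A few members stood higher in the mutant FVB tumors. H1fx (H1.10, a linker histone variant) had 4.13, 4.02, 2.52 and 4.38 log2 CPM in Homo and 3.93, 4.53, 4.25 and 4.44 in Het, against 1.96, 1.17, 2.22 and 3.73 in WT. All Het libraries lay above WT, and 1 Homo library overlapped. The H1fx model overlaps that of Gm47286 on the same strand and that of Gm5577 on the other, so that its reads are uncertain. The differences were 1.49 ± 0.48 in Homo (SE; limma adjusted p = 0.306) and 2.02 ± 0.48 in Het (adjusted p = 0.0999). Without WT 4 the Het value was 2.50 (adjusted p = 0.0227), where 1.59% of all genes passed. Hist1h2bc had 6.03, 4.82, 5.49 and 5.64 log2 CPM in Homo and 7.04, 5.77, 5.41 and 5.88 in Het, against 5.12, 4.71, 5.57 and 4.58 in WT, with overlap. Its difference was 0.50 ± 0.34 in Homo (limma adjusted p = 0.682) and 1.03 ± 0.34 in Het (adjusted p = 0.187). The linker genes Hist1h1a (H1.1) and Hist1h1e had differences of 0.59 ± 0.20 (adjusted p = 0.203) and 0.40 ± 0.16 (adjusted p = 0.29) in Het.

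Homo and Het FVB tumors were compared directly to ask whether losing the second Arid1a copy came with a further difference. No member passed, where 0.0% of all genes did, and 3 of 66 members (4.55%) had an unadjusted p under 0.05, against 3.86% of all genes. Hist1h2bl was the only member without overlap, higher in Homo, where 0.923% of all genes were higher and 1.75% lower. Hist1h1a had 5.29, 5.65, 5.26 and 5.86 log2 CPM in Homo, against 6.15, 5.88, 5.76 and 6.38 in Het, with a difference of -0.53 ± 0.20 (SE; limma adjusted p = 1). The H3 gene Hist1h3i had 1.6, 2.80, 2.01 and 3.85 in Homo, against 5.73, 4.17, 3.04 and 5.51 in Het, with a difference of -2.05 ± 0.88 (limma adjusted p = 1). The groups overlapped for both. The median of the Hist1h2bl group was -0.33, and it lay at -0.097 without Homo 1, the library with the lowest sum of this group, and at -0.67 without Homo 4, the one with the highest.

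In mixed-strain tumors the Hist1h2bl group lay on the other side. Of its 18 members 12 had higher means in Het than in WT, with a median log2 fold change of 0.45, against -0.082 for the other 44 clustered members, 0.0049 for the 10 variants and 0.046 for all genes. It was 0.28 without WT 3 and 0.29 without WT 6. No member of 72 tested passed, where 0.16% of all genes did. At an unadjusted p under 0.05 there were 12 members (16.7%), against 15.8% of all genes. The 7 of these that were higher were all in the Hist1h2bl group, and the 5 lower were 4 genes of the Hist1h4h group and H1f0. No member was free of overlap, where 0.057% of all genes were higher and 0.0798% lower. Of the 13 other genes tested within 500 kb of the group 7 had higher means, with a median of 0.091. Among the 7 was Hist1h2aj (0.44), itself a histone gene, which was no member because its row is not listed as protein coding. The 3 genes with an unadjusted p under 0.05 were all higher, at 1.32 for Prss16, 1.02 for Zfp184 and 0.42 for Zscan12. They were named after their values were seen, and 0 of the 13 were called. Strain mix, age and number of libraries differ between the tables, and whether the comparisons themselves differ was not tested.

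Hist1h1b ranged over 4.78, 6.49 and 6.83 (lowest, median and highest, log2(CPM + 0.5)) in Het, against 2.62, 5.08 and 6.39 in WT, and the groups overlapped widely. The difference was 1.23 ± 0.45 (SE, n = 8 each; limma adjusted p = 0.218). Hist1h2bn ranged over 3.82, 4.15 and 4.92 in Het, against 1.73, 3.28 and 4.25 in WT, with a difference of 1.05 ± 0.31 (limma adjusted p = 0.156). The WT libraries were the more spread out for both. Hist1h2bm had a difference of 1.09 ± 0.33 and Hist1h2bl of 0.52 ± 0.16 (adjusted p = 0.157 for each). The 4 members with at least 50% unique windows had a median of 0.97.

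H1f0 gave the smallest p of the variants there. It ranged over 7.27, 7.40 and 7.79 in Het, against 7.43, 7.94 and 8.04 in WT. WT 5 (the lowest) and WT 3 (7.76) lay within the Het range, and WT 8 was level with the highest Het library at 7.79. The difference was -0.40 ± 0.11 (SE; limma adjusted p = 0.124). Hist1h2bc, which like H1f0 gives polyadenylated mRNA, had a difference of -0.59 ± 0.20 (limma adjusted p = 0.19). Marker means differed here too, with all 10 hepatocyte, all 9 erythroid, all 9 neutrophil, 7 of 8 macrophage and Kupffer cell, 7 of 8 stellate cell and fibroblast and 4 of 6 endothelial markers lower in Het than in WT by their means. The medians were -0.39 for macrophage, -0.66 for stellate cell and -0.90 for endothelial markers. The neutrophil markers summed to 6.06 to 60.3 CPM in Het, against 14.8 to 192 CPM in WT, the erythroid markers to 7.99 to 343 CPM in Het, against 26.6 to 377 CPM in WT, and the part of any of these cell types in the histone values was not tested.

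The comparison of Rag1-/- livers asks whether human ARID1A given to livers with intact Arid1a goes with other histone mRNA levels. No member of 34 passed, where 0.32% of all genes did, and 5 (14.7%) had an unadjusted p under 0.05, against 12.5% of all genes. Libraries did not overlap for 7 members higher after ad-ARID1A, where 13.9% of all genes were, and for 0 lower, where 3.47% were. The 7 were Hist1h1e, Hist1h1b, Hist1h2bc, Hist1h4j, Hist1h4d, Hist2h2be and H2afv. The median log2 fold change was 0.24 for the 26 clustered members, 0.085 for the 8 variants and 0.090 for all genes. Endothelial markers had higher means after ad-ARID1A for 6 of 6 (median 0.28, with 3 at an unadjusted p under 0.05) and sums of 339 to 368 CPM, against 292 to 332 CPM after ad-Cre. Stellate cell and fibroblast markers had higher means for 7 of 8 (median 0.46, also with 3) and sums of 394 to 443 CPM, against 246 to 414 CPM after ad-Cre. Their part in the histone values was not tested. Centring each library on its median put the variants at -0.018. Without ad-ARID1A 1 the clustered median was 0.048.

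Hist1h1e had 5.33, 5.44 and 5.42 log2 CPM after ad-ARID1A, against 5.14, 5.09 and 5.12 after ad-Cre, a narrow spread in each group without overlap. The difference was 0.28 ± 0.095 (SE, n = 3 each; limma adjusted p = 0.281). Hist1h2bc had 6.53, 6.2 and 6.17 after ad-ARID1A, against 5.90, 5.79 and 6.16 after ad-Cre, with a difference of 0.35 ± 0.13 (limma adjusted p = 0.313). Hist1h3f, an H3 gene, ran the other way with overlap. It had 0.26, 1.0 and 1.58 after ad-ARID1A, against 1.30, 2.64 and 2.85 after ad-Cre, close to the floor of 1 CPM, with a difference of -1.32 ± 0.47 (limma adjusted p = 0.3). Hist1h4j had 2.05, 1.58 and 1.22 after ad-ARID1A, against 0.88, 0.91 and 0.33 after ad-Cre, with a difference of 0.91 ± 0.34 (limma adjusted p = 0.321). Of the 6 members of the Hist1h2bl group 4 had higher means, with a median of 0.55, which was 0.097 without ad-ARID1A 1. The 4 other genes listed within 500 kb of the group all had higher means after ad-ARID1A, with a median of 0.24 and 0 called, and Zscan26, also named after its values were seen, had the smallest p (0.50 ± 0.11, limma adjusted p = 0.119).

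**Figure D4:**
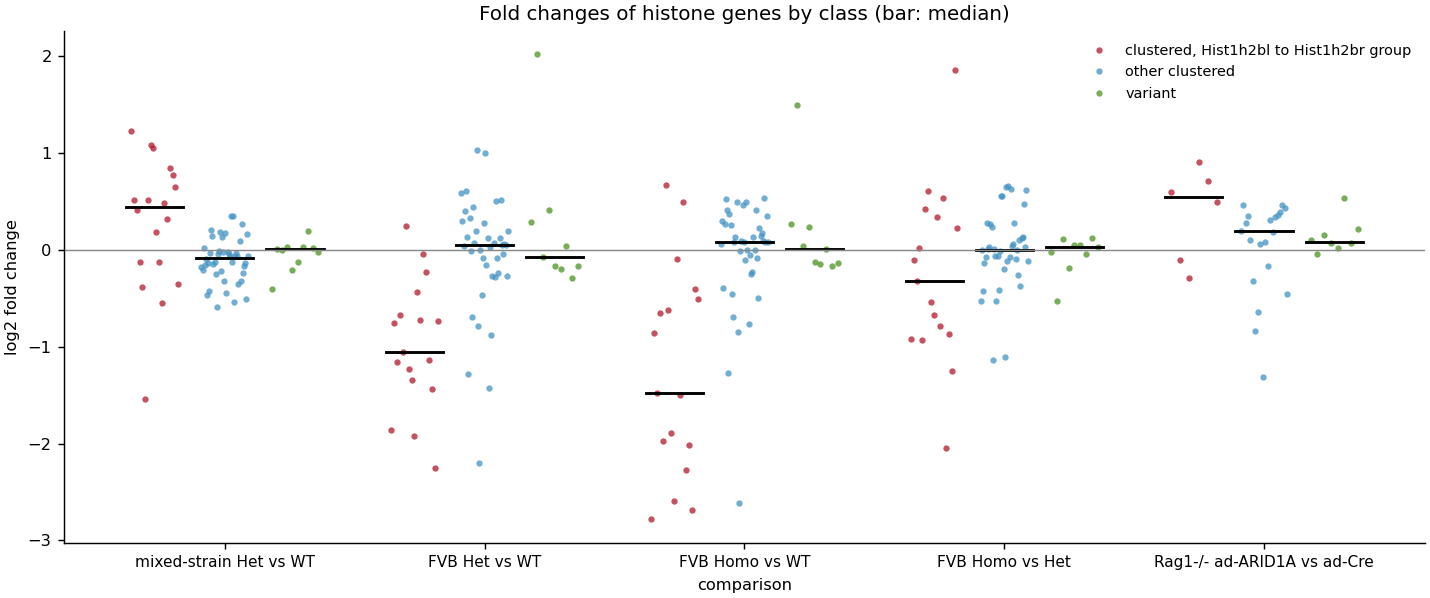
Log2 fold change of each member (points) in the 5 comparisons, split into the Hist1h2bl group, other clustered members and variants, with a bar at the median of each set. The members of the Hist1h2bl group spread from -2.78 to 0.67 in FVB Homo against WT, and H1fx is the variant point at 1.49 there and at 2.02 in FVB Het against WT.

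No variant histone passed the threshold in any comparison, where 0.0% to 0.32% of all genes did. With array weights 5 of 9 were called in FVB Het against WT, H1fx, H1f0 and H2afv as higher and H2afy and H3f3a as lower, where 14.2% of all genes were called. At an unadjusted p under 0.05 there was 1 of 9 in FVB Homo against WT, where 10.02% of all genes were. In FVB Het against WT there were 2 of 9 (14.2% of all genes), and in Homo against Het 0 of 9 (3.86%). Mixed-strain Het had 1 of 10 (15.8%) and Rag1-/- livers had 1 of 8 (12.5%). H2afz (H2A.Z) had 7.34, 7.07, 7.71 and 7.85 log2 CPM in FVB Homo and 6.83, 7.72, 7.73 and 7.84 in Het, against 7.40, 7.07, 7.57 and 7.91 in WT. All 3 groups overlapped, with differences from WT of 0.0050 ± 0.24 in Homo and 0.043 ± 0.24 in Het (SE). In Rag1-/- livers H2afz had 4.69, 4.56 and 5.07 after ad-ARID1A, against 3.57, 4.29 and 4.84 after ad-Cre, with overlap and a difference of 0.54 ± 0.28 (limma adjusted p = 0.465). H2afx (H2A.X, phosphorylated at DNA breaks) had differences of -0.12 ± 0.17 in FVB Homo, -0.17 ± 0.17 in FVB Het, -0.21 ± 0.13 in mixed-strain Het and 0.067 ± 0.27 in Rag1-/- livers.

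H3f3b, which encodes H3.3, had 7.58, 7.94, 7.87 and 7.8 log2 CPM in FVB Homo and 7.77, 7.65, 7.74 and 7.92 in Het, against 8.0, 7.89, 7.81 and 8.04 in WT. Its differences were -0.14 ± 0.10 in Homo and -0.17 ± 0.10 in Het (SE), -0.024 ± 0.080 in mixed-strain Het and 0.22 ± 0.096 in Rag1-/- livers (limma adjusted p = 0.39). H3f3a, the other H3.3 gene, had differences of -0.17 ± 0.19 in FVB Homo, -0.29 ± 0.19 in FVB Het, 0.019 ± 0.13 in mixed-strain Het and 0.070 ± 0.15 in Rag1-/- livers. H2afy (macroH2A1) lay between -0.19 and 0.023 over the comparisons with WT or ad-Cre. H2afv (H2A.Z.2) had a difference of 0.42 ± 0.15 in FVB Het (limma adjusted p = 0.243) and 0.24 ± 0.15 in FVB Homo. The sign of the FVB differences from WT of H2afy and H2afz, and of H3f3a in Homo, depended on WT 1 and WT 2, as given under the processing alternatives.

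**Figure D5:**
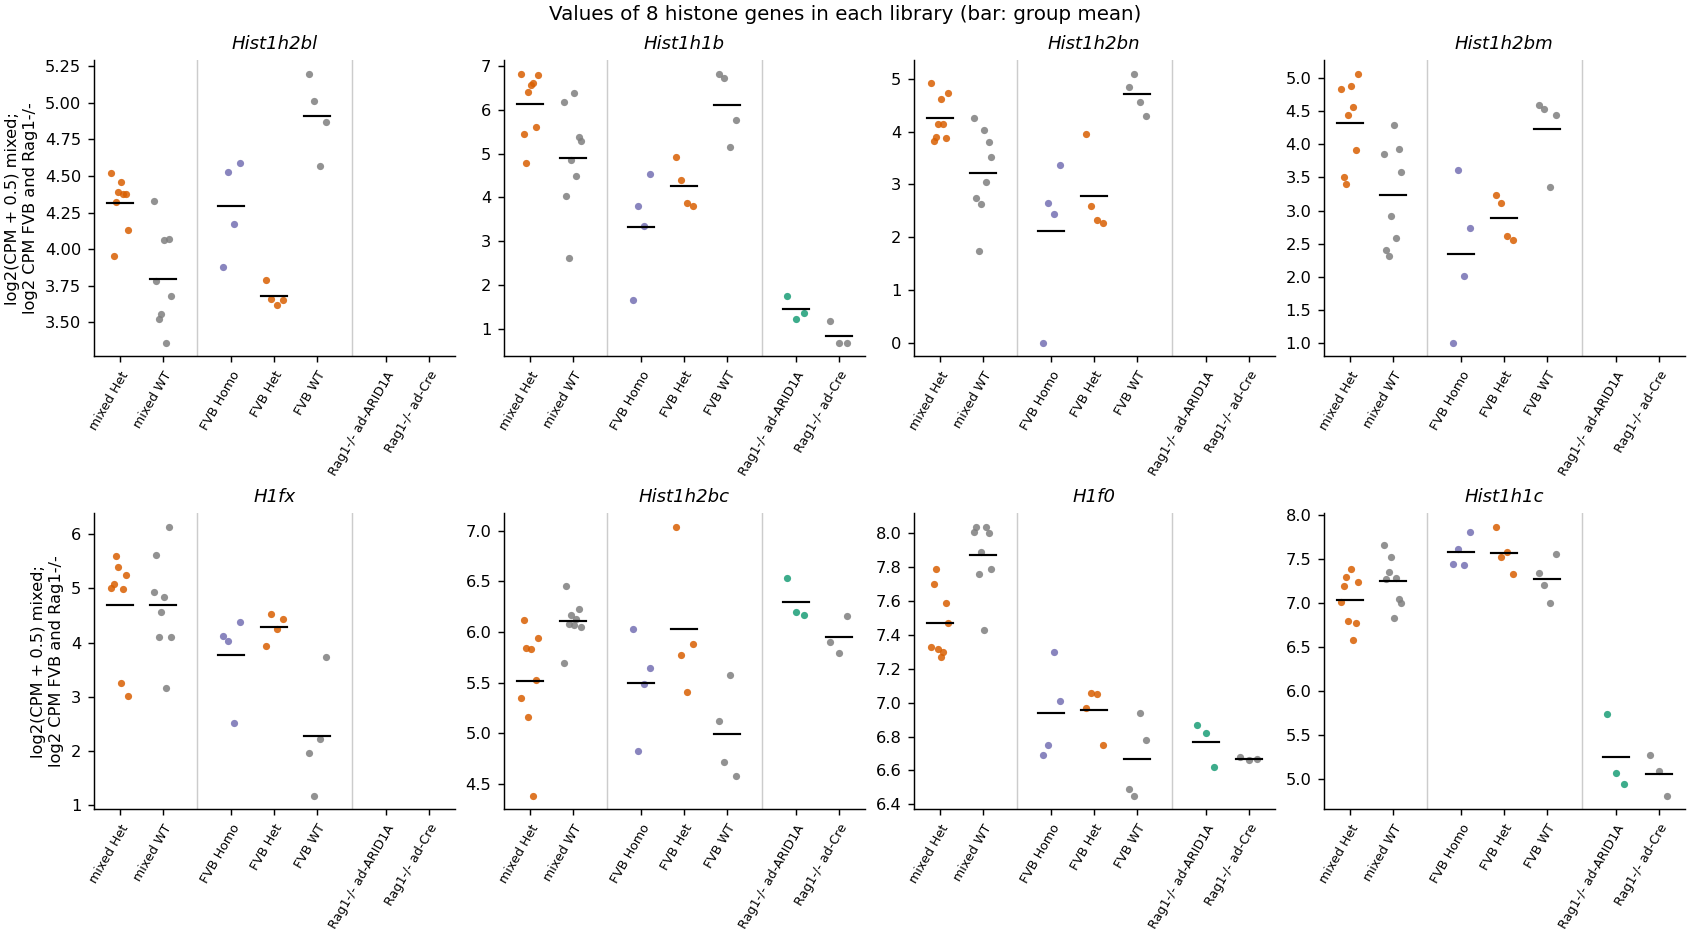
Values of 8 members in every library (points; bars are group means) by group, on log2(CPM + 0.5) for mixed-strain and log2 CPM for FVB and Rag1-/- libraries. For Hist1h2bl, Hist1h1b and Hist1h2bn the FVB mutant groups lie below WT and mixed-strain Het lies above WT by their means, and panels without points mark genes not listed in the Rag1-/- table.

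Some clustered genes varied more within groups than between them. Hist1h4m, an H4 gene of the Hist1h2bl group with 10.2% unique windows, had 3.70, 3.07, 5.17 and 5.91 log2 CPM in FVB Homo and 0, 5.24, 0 and 5.2 in Het, against 5.43, 5.77, 2.27 and 5.98 in WT. It was thus at or below 1 CPM in 2 Het libraries and above 5 in the others. In mixed-strain WT libraries it ranged over 0.080 to 5.54. The median SD within the Hist1h2bl group was 1.14 in Homo, 0.52 in Het and 0.69 in WT, against 0.24, 0.19 and 0.26 over all genes in the same groups, counting genes whose mean reached 2 log2 CPM. The part of reads shared between paralogs in this spread was not tested. Among mixed-strain libraries 5 clustered and 3 variant members were at 0 throughout. The 11 members below the level filter there were Hist1h2ba, Hist1h2aa, Hist2h2aa1, Hist2h2aa2, Hist2h3c1 and Hist2h3b of the clustered class and the H1 variants H1fnt and H1foo and the H2A variants H2afb1, H2afb2 and H2afb3. Of the 50-base windows of Hist2h2aa1, Hist2h2aa2, Hist2h3c1 and Hist2h3b 0% are unique, so that their 0 need not mean a lack of expression.

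The genes that make, process and deposit histones were counted from lists. In mixed-strain tumors 20 of 21 histone mRNA transcription and processing genes, 23 of 23 histone chaperones, 32 of 34 S phase genes and 20 of 20 mitosis genes had higher means in Het than in WT, where 56.1% of all genes did, and 0 were called. At an unadjusted p under 0.05 there were 9, 8, 10 and 10 of them (42.9%, 34.8%, 29.4% and 50%), all higher. Of all 17552 genes 15.8% had such a p, with 1455 genes higher and 1317 lower, and 0.16% were called. Zfp473, which acts in histone pre-mRNA cleavage with U7, had a difference of 0.85 ± 0.28 (SE; limma adjusted p = 0.181). Chaf1b, a subunit of the CAF-1 chaperone, had 0.68 ± 0.21 (adjusted p = 0.157), and Kif23, a kinesin of cytokinesis, had 0.93 ± 0.22 (adjusted p = 0.092). The clustered histones themselves were higher in 23 of 62.

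In FVB tumors the same lists had no called member, where 0.0434% of all genes passed in Homo and 0.0248% in Het against WT. In Homo against WT 27 of 34 S phase genes had lower means with a median of -0.18, and 4 lower ones (11.8%) had an unadjusted p under 0.05, against 10.02% of all genes. In Het against WT 18 of 34 had lower means with a median of -0.060, and 2 higher ones (5.88%) had an unadjusted p under 0.05, against 14.2% of all genes. Of the processing list, 14 of 21 genes had lower means in Homo and 13 of 21 in Het. Ccne1 (cyclin E1, which with Cdk2 activates the histone gene regulator Npat) had a difference of -1.0 ± 0.29 in Het (SE; limma adjusted p = 0.146). Pcna, the replication clamp, had -0.42 ± 0.17 in Homo (adjusted p = 0.429). The unpolyadenylated RNAs, which like clustered histone mRNA lack a poly(A) tail, had higher means for 13 of 15 in Homo (median 0.20) and for 9 of 15 in Het (median 0.015).

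In Rag1-/- livers 1 list gene fell, Mcm10, a replication initiation factor, where 0.32% of all genes were called. Its mean was 6.33 ± 0.12 log2 CPM after ad-ARID1A and 7.09 ± 0.040 after ad-Cre (SD, n = 3 each), a difference of -0.75 ± 0.089 (SE; limma adjusted p = 0.0133). Averaged over the 30 S phase genes the mean log2 CPM was 2.9 after ad-ARID1A and 2.64 after ad-Cre, far below Mcm10. Of these 30 genes 24 had higher means. Hjurp, the chaperone of the centromeric histone CENP-A, had a difference of 0.75 ± 0.14 (limma adjusted p = 0.0624). Of the processing list 16 of 20 and of the chaperones 17 of 22 had higher means, where 66.1% of all genes did.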

How the data were processed

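RNA from frozen tissue (Trizol and miRNeasy) was made into libraries with a Nugen kit, per the labels' protocols. Trim Galore, HISAT2, SAMtools, featureCounts and GRCm38 (mm10) are named in the submitters' processing notes, and versions, strand and the treatment of multi-mapped reads were not given in the sources used here. Near-identical paralogs can therefore share or lose reads, and antisense genes can share them. The authors deposited log2 values. The FVB and Rag1-/- tables hold log2 CPM, with values of at most 1 CPM listed at 0. The mixed-strain table, named RPKM by the authors, holds log2(CPM + 1), since its deposited values add up as CPM do in every library. It was tested on log2(CPM + 0.5) with a mean of at least 0.5 CPM. Fold changes near the floor are understated. The descriptions of the ad-ARID1A samples name columns as ad-Cre, and their columns were taken by number and title.

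Read totals were estimated from the step of low values (tolerance 0.1 reads). Every table got a separate limma 3.58.1 fit (R 4.3.3, trend), two-sided, with Benjamini-Hochberg adjustment over all its genes (17552, 16140 and 14074) and a threshold of 0.05. The fit was tested on simulated data. Libraries of a group never matched within sampling noise. Replicate numbers did not pair the libraries. Transcripts and positions came from GENCODE M21, and promoters from RefSeq for 76 of 83 members. A further 8, 3 and 2 histone rows not listed as protein coding (mixed-strain, FVB and Rag1-/- tables) were left out. Members and lists were chosen with earlier results of these data known. Named are the members called in any comparison, the 5 clustered and 3 variant members of smallest p, fixed variants, and 2 genes of each list. Alternatives were other filters, pseudocounts, centring, array weights, no trend, a replicate block, fits of the 2 groups alone and leaving out libraries.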

Additional observations from a re-analysis of the deposited data

Results flagged for a closer look

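Single libraries far from the rest of their group were sought in 108 sets of 4 or 8 libraries, each of 1 named gene in 1 group. There were 5 such libraries, where chance gives about 1 in 20. The Rag1-/- groups of 3 libraries were not screened. In mixed-strain tumors H2afz was low in Het 6 (6.63, others 7.34 to 7.56) and H1f0 was low in WT 5 (7.43, others 7.76 to 8.04), both as log2(CPM + 0.5). In FVB tumors H2afx was high in Het 4 (6.42 log2 CPM, others 6.19 to 6.2) and H2afz was low in Het 1 (6.83, others 7.72 to 7.84). Hist1h2bm was low in FVB WT 3 (3.36 log2 CPM, others 4.44 to 4.58), which was also the WT library with the lowest sum of the Hist1h2bl group (228 CPM, others 363 to 654 CPM).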

How the results depend on the processing

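Of 83 results on named genes 28 changed sign in some alternative, and each of these was at most 0.197 in size on the log2 scale as reported. The count of members called in FVB Het against WT was 1 as reported and 0 with mean log2 CPM of at least 2, with log2(CPM + 1), without WT 1 and WT 2, without the variance trend, in the fit of these 2 groups alone and with the replicate block. It was 14 with array weights, which called 14.2% of all genes, and 0 to 2 when 1 library was left out, with the 2 without WT 4, where 1.59% of all genes were called. In FVB Homo against WT array weights gave 1 call in place of 0, where 0.13% of all genes were called. The replicate block ended the call of Hist1h2bl (adjusted p = 0.0685). Same-numbered libraries did not deviate together in every pair of any comparison (lowest r -0.28 to -0.0061), and the library with its own number was the best match in 2 of 4 pairs for FVB Het and WT, 3 of 4 for Homo and WT, 1 of 4 for Homo and Het, 1 of 8 for mixed-strain Het and WT and 1 of 3 in Rag1-/- livers, so the numbers were not taken as pairs. The median of the Hist1h2bl group in mixed-strain Het was 0.965 with members of at least 50% unique windows only, an alternative chosen after seeing the data like all those for this group. In Rag1-/- livers the variant median was -0.018 with each library centred on its median. Leaving out 1 library put the clustered median there at 0.048 to 0.321 and the median of the Hist1h2bl group at 0.097 to 0.69. The causes were not tested.

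Without WT 1 and WT 2 signs turned in FVB Het against WT for H2afj (0.102), H2afy (0.025), H2afz (-0.21) and Hist2h2be (0.035), and in Homo against WT for H2afy (0.077), H2afz (-0.247) and H3f3a (0.117). With array weights they turned for Hist2h2be in FVB Het against WT (0.15) and in Homo against Het (-0.086), for H2afj in Homo against WT (-0.075), and for H2afj (0.023) and H2afy2 (-0.397) in mixed-strain Het. H2afy2 (macroH2A2) was at -0.408 there without WT 2 and Het 5. With libraries centred they turned for H1f0 (0.034) and H2afz (0.016) in Homo against Het, and in Rag1-/- livers for H1f0 (-0.003), H2afx (-0.037), H2afy (-0.08) and H3f3a (-0.033).

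Leaving out 1 library turned other small values. In mixed-strain Het the ranges were -0.204 to 0.251 for H1fx, -0.062 to 0.054 for H2afj, -0.051 to 0.13 for H2afv, -0.259 to 0.185 for H2afy2, -0.033 to 0.068 for H3f3a and -0.058 to 0.008 for H3f3b. In FVB Het against WT they were -0.201 to 0.052 for H2afj, -0.097 to 0.276 for H2afz and -0.247 to 0.172 for Hist2h2be. In Homo against WT they were -0.086 to 0.168 for H2afj, -0.256 to 0.047 for H2afx, -0.134 to 0.146 for H2afz and -0.117 to 0.279 for Hist2h2be. In Homo against Het they were -0.141 to 0.062 for H1f0, -0.033 to 0.217 for H2afx, -0.271 to 0.103 for H2afz, -0.02 to 0.1 for H3f3b, -0.079 to 0.101 for Hist1h1c and -0.08 to 0.343 for Hist2h2be. In Rag1-/- livers they were -0.105 to 0.045 for H2afj, -0.12 to 0.35 for H2afx, -0.008 to 0.072 for H2afy, -0.035 to 0.145 for H3f3a and -0.047 to 0.348 for Hist1h1c. The estimated depths and the floor of 1 CPM limit what can be read from genes at 0 in the FVB and Rag1-/- tables. Reads shared by paralogs, or lost where paralogs match, limit values of single clustered genes.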

Other observations

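The phosphate and urate transporter genes Slc17a1 to Slc17a4 stand next to the histone genes from Hist1h4h to Hist1h1a and are expressed by hepatocytes. In the Rag1-/- livers Slc17a2 rose by 0.49 ± 0.082 on the log2 scale after ad-ARID1A (SE; limma adjusted p = 0.0486). Slc17a4 had differences from WT of -1.88 ± 0.55 in FVB Homo (limma adjusted p = 0.252), -1.72 ± 0.55 in FVB Het (adjusted p = 0.178) and -1.74 ± 0.53 in mixed-strain Het (adjusted p = 0.158). The histone genes beside them had medians of 0.034, 0.034 and -0.067 in the same comparisons. Slc17a genes were looked at because they lie within 500 kb of the histone genes, and Slc17a2 and Slc17a4 were named after their values were seen.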
